A study of Medicago sativa with 24 samples.

Results

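In the leaves of alfalfa (Medicago sativa), 29 of the 41527 genes on the array met a rule for transcription outside the range of both parents in all 6 of their hybrids, 14 of them above and 15 of them below. The counts rest on single arrays, with 24 genes above without 12P replicate 2, and 34, 24 and 23 below without PG-F9 replicate 1, 12P replicate 3 and PG-F9 replicate 2. They include an alternative oxidase (TC199572), which was lower in the hybrids, and an abscisic acid 8'-hydroxylase (TC195807), a GRAS transcription factor (TC192792) and a cytochrome P450 (TC199769), which were higher. The genes were chosen by their values. All 18 hybrid arrays had to lie above, or all below, all 6 parental arrays, the mean log2 intensities of hybrids and parents had to be over 0.6 apart, the means of the diploid (2x) and tetraploid (4x) hybrids at most 1 apart, and those of the parents at most 2 apart. Genes that the study examined one by one, and genes annotated as retroelements, transposons or disease resistance genes, had been set aside. The differences of the hybrids from the parents, of the 2x from the 4x hybrids and of one parent from the other are therefore given below as a description, without a test.

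A hybrid receives equal shares of its genome from both parents. A gene whose alleles act independently is then transcribed, on average over the offspring, at the mean of the parents, and this is called additive. The study states that these parents are heterozygous and that their alleles segregate, so a single hybrid need not lie at that mean. Transcription off that mean is called nonadditive, and transcription above the higher or below the lower parent is called transgressive. Such genes attract attention in hybrids because plants that combine divergent genomes often grow more vigorously than their parents, and in newly formed polyploids because the doubled genome and the hybrid state come together.

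The parent PG-F9 belongs to M. sativa subsp. falcata and produces eggs with the unreduced chromosome number. The pollen parent 12P was selected for unreduced pollen from a cross of subsp. coerulea with subsp. falcata. Both are diploid, and their cross gave the full sibs S16-2x, S24-2x and S8-2x, which are diploid, and S48-4x, S60-4x and S29-4x, which are tetraploid. Each of the 8 genotypes is 1 clone, propagated by cuttings and grown untreated in a screen house, and each was measured on 3 arrays, each with RNA from the bulked young leaves of 2 cloned plants, so the parents had 6 arrays and the 2x and 4x hybrids 9 each. The probes were designed on sequences of M. truncatula, a related species, and intensities are compared only within a gene. Whether the alleles of the genotypes match the probes of a gene equally well was not tested. Array medians ran from 499.3 to 527.7 on the linear scale, 66.0% to 79.1% of the genes exceeded the highest negative control, and the mean correlation of an array with its replicates was between 0.985 and 0.995. All 8 leaf genes examined, for chlorophyll a/b binding proteins, a photosystem I subunit and the Rubisco small subunit, were above the highest negative control on at least 15 of the 24 arrays, and 6 of them on all. Of 3 genes annotated from nodules, 1 was above the highest control on all arrays and none was below it on all. One of them, TC191278 (early nodulin 12B), was 3.24 higher in the hybrids than in the parents on the log2 scale, with parental arrays from 4.96 to 11.78. The log2 of the summed intensity of the 3 nodule genes ran from 8.84 to 12.12 in the parents, from 11.22 to 12.32 in the 2x hybrids and from 11.83 to 12.53 in the 4x hybrids, and that of the 8 leaf genes from 14.74 to 16.41, from 14.31 to 15.23 and from 15.75 to 16.64. The study had listed all 8 leaf genes as higher in 4x than in 2x hybrids on these arrays. Their 2x and 4x ranges were thus set apart by that choice. The part of the nodule and leaf genes in the results was not tested. In whole leaves, fewer cells of a type and less RNA per cell cannot be told apart.

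Without the other conditions, 25 genes (0.0602% of those on the array) had all hybrid arrays above all parental arrays and 29 (0.0698%) all below, 0.13% together. The limit of 0.6 on the log2 scale left out 24 of these, 11 above and 13 below, and 1 further gene that was lower in the hybrids was dropped by its name or annotation. The limits on the ploidy and the parental difference removed 0 genes. The 14 higher genes are 0.0337% and the 15 lower genes 0.0361% of all genes. The 3 genes just inside the limit were TC174686 (0.61), NP7263597 (0.64) and TC192429 (0.66) on the higher side, and TC192791 (-0.63), TC197698 (-0.76) and TC185846 (-0.80) on the lower. Just outside it were TC177827 (0.53), TC177089 (0.52) and TC192487 (0.48), and TC180801 (-0.58), TC186974 (-0.48) and TC201878 (-0.42).

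The difference of the hybrid from the parental mean had a median of 0.95 on the log2 scale in the 14 higher genes (0.61 to 1.59) and of -0.96 in the 15 lower genes, whose sizes ran from 0.63 to 1.96. In each direction, 7 genes were over 1. Over all genes on the array the median was -0.01, and 2.36% of them were over 0.6 above and 2.08% over 0.6 below the parental mean. The space between the nearest hybrid and parental arrays was narrow. Its median was 0.15 in the higher and 0.09 in the lower genes. It was widest in TC174702 (0.74), TC200053 (0.59) and TC178846 (0.47), and narrowest in TC197698 (0.0014).

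**Figure D1:**
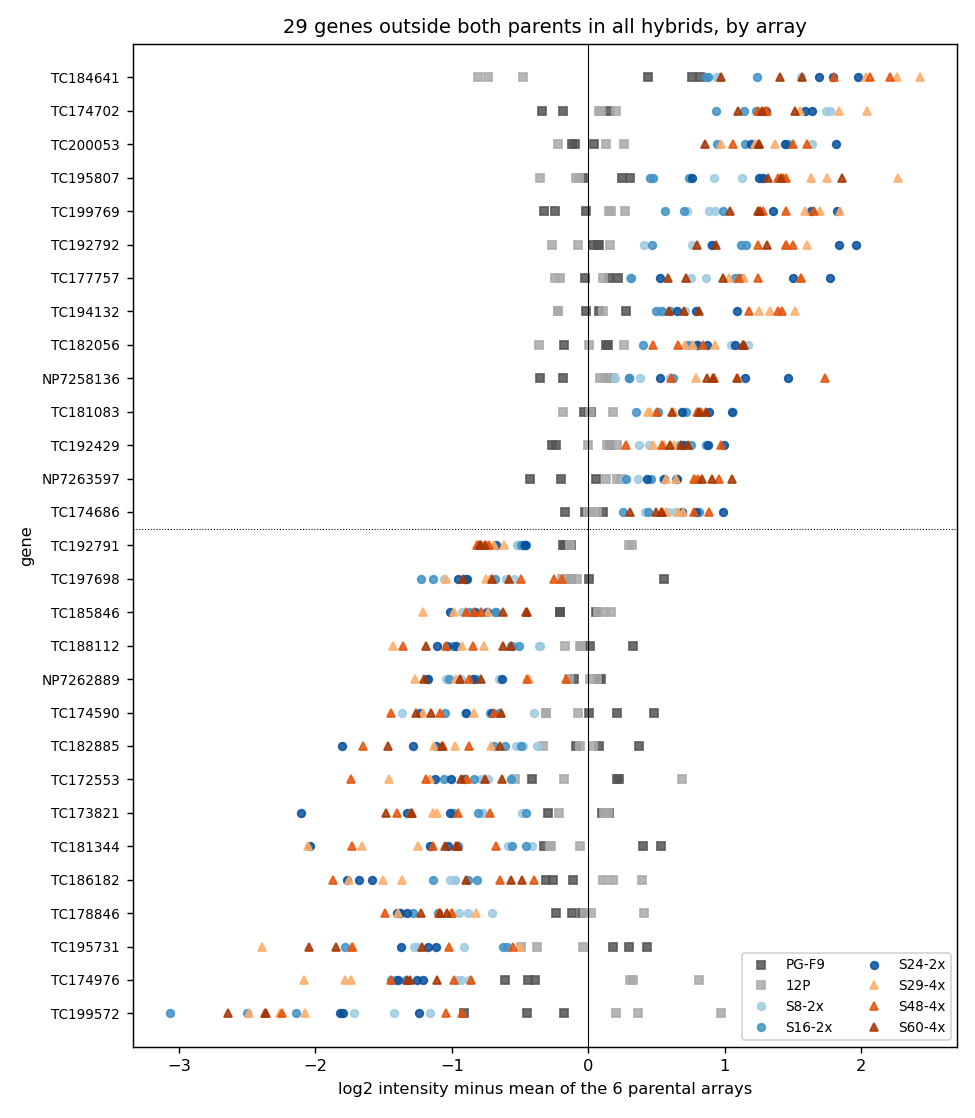
The log2 intensity of the 29 genes on each of the 24 arrays, minus the mean of the 6 parental arrays of the gene (squares, parents; circles, 2x hybrids; triangles, 4x hybrids). In the 14 genes above the dotted line all hybrid arrays lie to the right of all parental arrays, and in the 15 genes below it to the left, in many of them by a narrow space.

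Alternative oxidase, in the mitochondria of plants, passes electrons from ubiquinol straight to oxygen and bypasses the later steps of the respiratory chain that store energy. TC199572, similar to an alternative oxidase of tobacco, had the largest difference of the 29 genes. Its log2 intensity was 8.68, 8.22 and 8.95 on the arrays of PG-F9 and 10.11, 9.49 and 9.33 on those of 12P. In the 2x hybrids it was 7.42, 7.97 and 7.71 in S8-2x, 6.99, 6.07 and 6.63 in S16-2x, and 7.31, 7.89 and 7.34 in S24-2x. In the 4x hybrids it was 6.65, 6.88 and 7.06 in S29-4x, 8.21, 6.89 and 8.09 in S48-4x, and 6.77, 6.49 and 6.76 in S60-4x. The hybrid arrays did not overlap with the parental arrays, but the highest of them, in S48-4x, came within 0.02 of the lowest parental array, in PG-F9. The mean was 9.13 ± 0.66 (SD, n = 6 arrays) in the parents, 7.26 ± 0.62 (n = 9) in the 2x and 7.09 ± 0.62 (n = 9) in the 4x hybrids, a difference of -1.96, or 3.89-fold. S16-2x and S60-4x had the lowest means (6.56 and 6.67) and S48-4x the highest (7.73). It was above the highest negative control on 23 of the 24 arrays, the only one of the 29 genes not above it on all, so that its lowest values are limited by the background.

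The list of 1019 genes that the study annotated holds 5 other genes named alternative oxidase. The study presents this list as probe sets whose expression differed between the means of parents and progeny. It was chosen on the same samples, and is not independent evidence of a direction. TC179108, homologous to alternative oxidase 1a of Arabidopsis, was -2.06 from the parental mean in the hybrids, from a parental mean of 8.31 ± 1.20 (SD, n = 6). Its parents were far apart, with 7.33 in PG-F9 and 9.28 in 12P, and 14 of its 18 hybrid arrays lay below all parental arrays. Its hybrid mean of 6.24 did not reach the level of the highest negative control (6.32, mean over the arrays), which limits the size that could be measured. The other 4 genes, all annotated by 1 sequence from saffron crocus, had other patterns. TC201028, TC201311 and TC201537 were lower in the hybrids by means of -0.69, -0.61 and -0.85. In the same order, however, 1, 3 and 3 of their hybrid arrays lay above all parental arrays, and 13, 10 and 12 below. In TC201342 the hybrid mean was 1.09 higher, and its parents were far apart (PG-F9 minus 12P, -2.94). Of these 6 genes, 5 were thus lower by over 0.6 and 1 higher, and only TC199572 met all conditions.

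Among the lower genes, 3 more have a named function. TC181344, a homolog of a guanine nucleotide regulatory protein of broad bean, belongs to the GTP-binding proteins that act as molecular switches. Its log2 intensity was 8.02, 8.88 and 8.75 in PG-F9 and 8.29, 8.08 and 8.06 in 12P, and in the hybrids it ran from 6.30 to 7.93 (median 7.39) in 2x and from 6.29 to 7.67 (median 7.21) in 4x, a difference of -1.10. S29-4x and S24-2x had the lowest means (6.70 and 6.94). The other gene of the study's list with a related annotation, NP7274585 (a GTP-binding protein synthesis factor), was 0.70 higher in the hybrids, with 12 of 18 hybrid arrays above all parental arrays. TC182885 is similar to an S-like ribonuclease of almond, a family of secreted enzymes that break down RNA and are known for their induction when phosphate is short or leaves age. It was 8.27, 8.73 and 8.44 in PG-F9 and 8.02, 8.29 and 8.39 in 12P. In the hybrids it was 7.98, 7.88 and 7.83 in S8-2x and 7.75, 7.67 and 7.87 in S16-2x, close below the parents, and lower in S24-2x (7.07, 6.55 and 7.24) and in the 4x hybrids (6.71 to 7.71, median 7.29). TC172553, an AAA ATPase of the family that uses ATP to unfold or take apart proteins and complexes, was 9.27, 8.64 and 9.28 in PG-F9 and 9.74, 8.88 and 8.52 in 12P, against 7.93 to 8.49 (median 8.22) in the 2x and 7.32 to 8.42 (median 8.12) in the 4x hybrids. The parental means of this gene were 0.02 apart (9.06 and 9.05), and the hybrids were at -0.96. Of the 9 genes of the study's list with AAA ATPase in their annotation, 6 were lower in the hybrids by over 0.6 and 0 higher. Of the whole list, which was chosen on these samples, 28.3% were lower and 30.6% higher by over 0.6. The annotation of TC185251, TC188775 and TC191533 also names a disease resistance protein and that of TC176302 an ABC-2 domain of membrane transporters, and TC185251 (-0.99) and TC176302 (-1.26) are among the 6. Only TC172553 met all conditions. In NP7272303 16 of 18 hybrid arrays lay below all parental arrays, but in NP7272307 and TC176302 only 7 each.

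Abscisic acid 8'-hydroxylases are cytochrome P450 enzymes of the CYP707A family that start the breakdown of abscisic acid, the hormone that closes stomata and restrains growth under drought. TC195807, a homolog of the enzyme of common bean, had a log2 intensity of 9.06, 8.77 and 9.12 in PG-F9 and of 8.74, 8.72 and 8.46 in 12P. In the 2x hybrids it was 10.09, 9.94 and 9.74 in S8-2x, 9.29, 9.55 and 9.27 in S16-2x, and 10.10, 9.57 and 10.06 in S24-2x. In the 4x hybrids it was 10.57, 11.08 and 10.44 in S29-4x, 10.26, 10.24 and 10.20 in S48-4x, and 10.13, 10.67 and 10.23 in S60-4x. All hybrids were above both parents, S16-2x by the least, and all 9 arrays of the 4x hybrids were above all 9 of the 2x hybrids. The parental mean was 8.81 ± 0.24 (SD, n = 6) and the means were 9.73 ± 0.33 in the 2x and 10.42 ± 0.31 in the 4x hybrids (SD, n = 9), the largest distance between the ploidy levels among the 29 genes (0.69). The hybrids were 1.27 above the parents, or 2.40-fold. The study's list holds 1 other gene of the family, TC191264 (CYP707A17). It was 7.55 ± 0.43 in the parents and 8.83 ± 0.45 in the hybrids (SD, n = 6 and n = 18), a difference of 1.28, with 17 of 18 hybrid arrays above all parental arrays.

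TC192792 is similar to GRAS2 of tomato. GRAS proteins are transcription regulators of plants, among them the DELLA repressors of gibberellin responses and the factors that pattern roots. The gene was nearly alike in the parents, with 10.45, 10.44 and 10.41 in PG-F9 and 10.30, 10.11 and 10.53 in 12P. It was 11.13, 11.28 and 10.78 in S8-2x, 11.53, 11.49 and 10.84 in S16-2x, and 12.21, 11.28 and 12.33 in S24-2x, and from 11.17 to 11.97 (median 11.82) in the 4x hybrids. No hybrid array reached down to the parents, and the hybrid mean was 1.18 higher, with S24-2x highest (11.94) and S8-2x lowest (11.06). It was the only gene of the study's list with this name, and of the 39 genes there with keywords of transcription factors 6 were over 0.6 higher and 11 lower in the hybrids, with a median of -0.34.

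TC199769 is weakly similar to a cytochrome P450 of chickpea. The P450 enzymes are a large family of oxygenases of hormone and secondary metabolism. It was 10.14, 10.23 and 10.45 in PG-F9 and 10.74, 10.62 and 10.63 in 12P, and it was 11.35, 11.40 and 11.19 in S8-2x and 11.46, 11.03 and 11.17 in S16-2x. It was higher than in those 2 genotypes, without overlap, in S24-2x (12.10, 12.29 and 11.83), S29-4x (12.31, 12.17 and 12.05), S48-4x (11.92, 12.12 and 11.75) and S60-4x (11.51, 11.73 and 11.71). The hybrids were 1.26 above the parents. Of the 14 genes annotated as cytochrome P450 in the study's list, 6 were over 0.6 higher and 5 lower in the hybrids, from -1.06 to 1.36. TC184648, annotated by the same chickpea sequence, was 0.72 higher, with 11 hybrid arrays above and 1 below all parental arrays, and in it the 4x hybrids were the lower (2x minus 4x, 1.38).

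**Figure D2:**
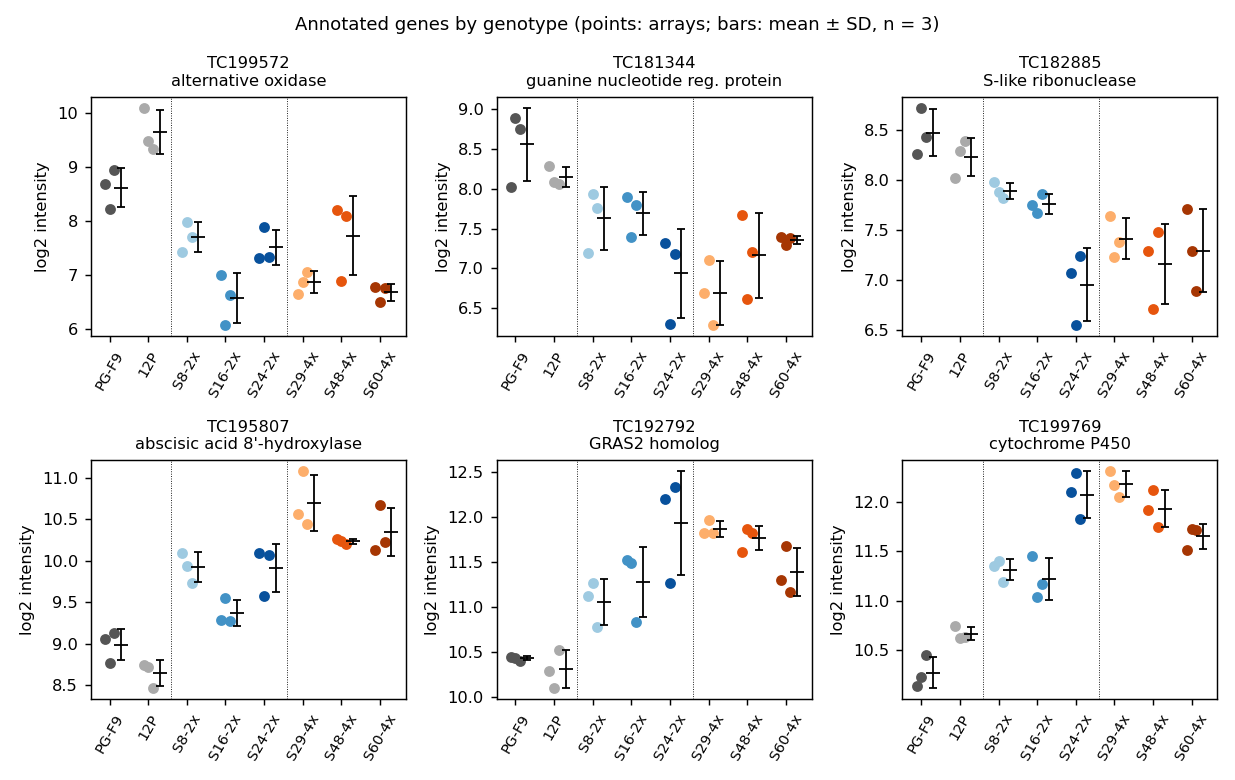
The log2 intensity of 6 annotated genes in the 8 genotypes (points, arrays; bars, mean ± SD, n = 3 arrays; dotted lines part the parents, the 2x and the 4x hybrids; the axes do not start at 0). All 18 hybrid points lie below the 6 parental points in the upper row and above them in the lower row. S24-2x lies with the 4x hybrids rather than with S8-2x and S16-2x in TC182885 and TC199769.

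**Figure D3:**
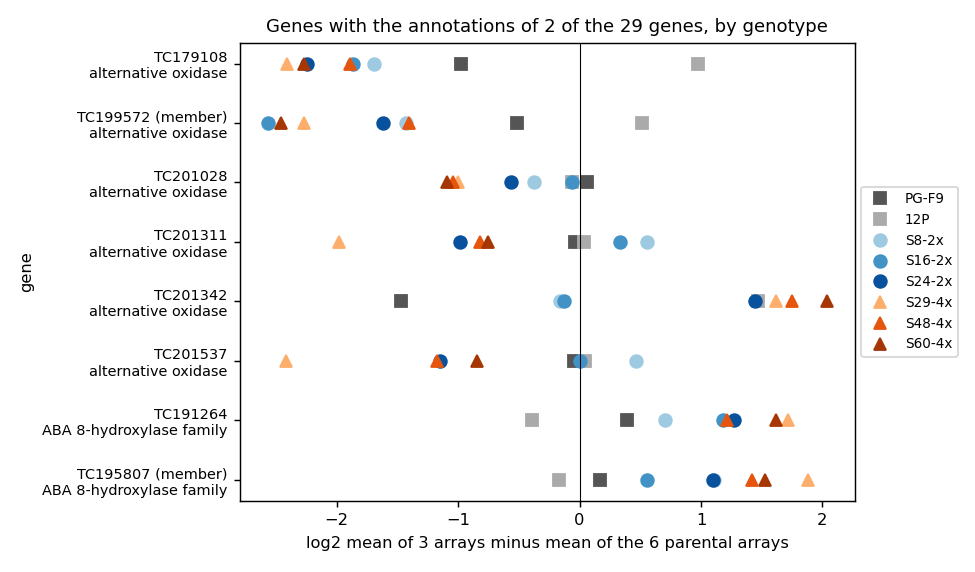
Genotype means (3 arrays each) of the 6 genes annotated as alternative oxidase and the 2 of the abscisic acid (ABA) 8'-hydroxylase family, as log2 intensity minus the mean of the 6 parental arrays. All hybrid means lie outside both parental means in TC179108, TC199572, TC201028, TC191264 and TC195807, and on both sides of them in TC201311 and TC201537. In TC201028 the mean log2 intensity of S16-2x (7.05) is only just below that of 12P (7.06).

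The other 22 genes have no named function here. For 10 of them, 5 higher and 5 lower, the study's list gives only a similar sequence of grapevine or Arabidopsis, and 12, 6 in each direction, are not in that list. The study presents the list as probe sets whose expression differed between the means of parents and progeny. It thus did not list these 12 genes as differing. The largest difference among the higher genes was that of TC184641, similar to a predicted grapevine sequence. It was 10.85, 10.52 and 10.90 in PG-F9 and 9.61, 9.35 and 9.28 in 12P, the widest parental distance of the 29 genes (1.34). The 2x hybrids ran from 10.95 to 12.06 (median 11.32) and the 4x hybrids from 11.06 to 12.52 (median 12.12). The hybrids were 1.59 above the parental mean, but S16-2x (10.95, 11.32 and 10.96) was only just above PG-F9. TC174702 was set apart most clearly. This homolog of the Arabidopsis gene At3g57030 was between 10.70 and 11.23 (median 11.12) in the parents, between 11.97 and 12.80 (median 12.34) in the 2x and between 12.13 and 13.08 (median 12.35) in the 4x hybrids, a difference of 1.43. TC200053 was between 7.66 and 8.15 (median 7.86) in the parents, between 8.83 and 9.70 (median 9.33) in the 2x and between 8.74 and 9.49 (median 9.13) in the 4x hybrids. Its 6 hybrid means lay within 0.36 of each other. TC177757 and TC194132 were 1.01 and 0.89 higher, and in TC194132 the arrays of S29-4x (13.57 to 13.83) and S48-4x (13.49 to 13.74) were above those of the other hybrids (12.81 to 13.41). Among the higher genes with no annotation here, TC182056 (0.86), NP7258136 (0.80) and TC181083 (0.71) had the largest differences. In NP7258136 the lowest hybrid array was only 0.01 above the highest parental array.

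Of the lower genes without a named function, TC174976 was 11.76, 11.98 and 11.93 in PG-F9 and 13.18, 12.69 and 12.67 in 12P, and the hybrids were between 10.28 and 11.51, a difference of -1.30. 12P was the higher parent, and PG-F9 lay nearer to the hybrids (PG-F9 minus 12P, -0.96). The same grapevine sequence annotates 3 other genes of the study's list, which were also lower in the hybrids, TC198826 (-0.82), TC199952 (-1.41) and TC202214 (-1.17), with 3, 10 and 16 of 18 hybrid arrays below all parental arrays. TC195731 was between 9.85 and 10.78 (median 10.42) in the parents, and its hybrids ran from 7.95 to 9.84, so that the highest of them came within 0.01 of 12P. TC196733, with the same grapevine match, was at -1.15 with 14 hybrid arrays below the parents. Whether probes of such genes bind transcripts of each other was not tested. TC178846 was the most clearly apart on the lower side, with 11.89 to 12.53 (median 12.09) in the parents, 10.72 to 11.42 (median 10.84) in the 2x and 10.63 to 11.30 (median 11.04) in the 4x hybrids. TC186182 and TC173821 were lower by means of -1.13 and -1.08, with S24-2x lowest in both (7.14 and 7.81). The 6 lower genes with no annotation were TC174590 (-0.94), NP7262889 (-0.86), TC188112 (-0.84), TC185846 (-0.80), TC197698 (-0.76) and TC192791 (-0.63). In TC192791 the values were tight, with 13.23 to 13.45 in the 2x and 13.08 to 13.28 in the 4x hybrids, below 13.72 to 14.22 in the parents.

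The median distance between PG-F9 and 12P was 0.25 in the 29 genes, near the 0.30 of all genes. Only TC184641, TC195731, TC174976 and TC199572 had parents over 0.5 apart, and PG-F9 was the higher parent in 14 of the 29. Separation of the hybrid arrays from both parents, which the rule requires, favours genes with similar parents, so nothing is read from this distance. It was smaller than the difference of the hybrids from the parents in all 29 genes. Where the parents were at most 0.5 apart, the limit of 0.6 in the rule alone fixed this. The 4x hybrids were farther from the parental mean than the 2x hybrids in 20 of the 29 genes, 10 in each direction. The median of 2x minus 4x was -0.22 in the higher genes and 0.20 in the lower genes. Over all genes the median absolute difference of 2x and 4x was 0.18, of similar size. The share of all genes with the 4x hybrids farther was not counted, so the 20 are not shown to be particular to the 29 genes. By identifier, 26 of the genes were tentative consensus sequences (TC) and 3 (10.3%) were NP entries, which make up 26.7% of all genes.

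The hybrids differed in how far they departed. The median size of the departure over the 29 genes was 0.85 in S8-2x, 0.77 in S16-2x and 1.10 in S24-2x, and 1.17 in S29-4x, 1.10 in S48-4x and 0.99 in S60-4x. S8-2x had a mean over 1 from the parental mean in 6 genes and S16-2x in 8, but S24-2x in 18, S29-4x in 17, S48-4x in 19 and S60-4x in 14. The array as a whole showed a similar order, with 2.43% of all genes over 1 in S8-2x, 2.26% in S16-2x, 4.32% in S24-2x, 3.29% in S29-4x, 5.1% in S48-4x and 3.27% in S60-4x. The nearest hybrid to the parents was S8-2x in 11 genes and S16-2x in 10, and S24-2x in 0, whereas S24-2x was farthest in 9, S29-4x in 8 and S48-4x in 6. In 22 genes, 11 in each direction, S24-2x was farther from the parents than both other 2x hybrids (41.4% of all genes, by absolute distance), and in 19 genes it was farther than the mean of the 4x hybrids. The rule fixes the side but not this order of the hybrids, and the order is counted over genes measured on the same arrays, so it was not tested as a whole and is not shown to be particular to the 29 genes.

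**Figure D4:**
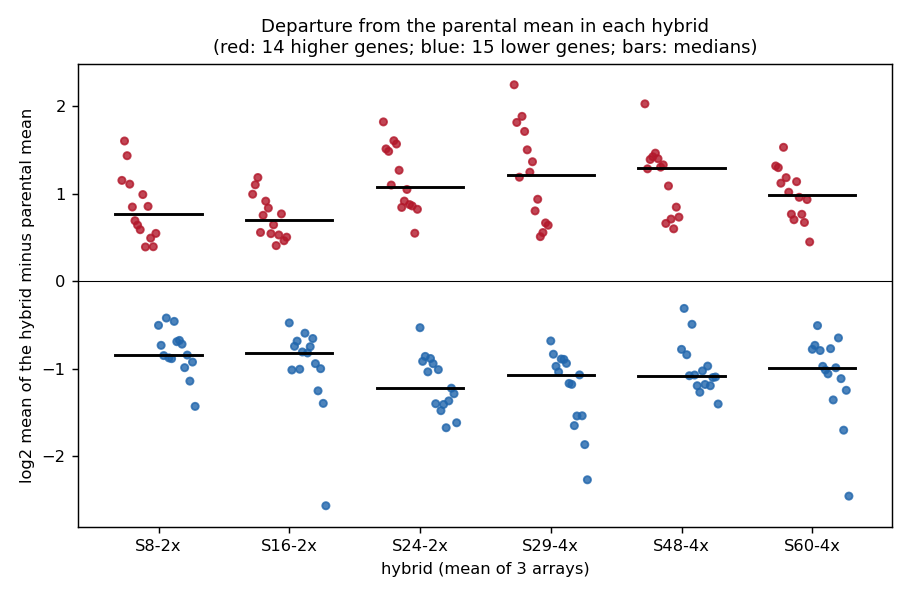
The mean log2 intensity of each hybrid (3 arrays) minus the mean of the 6 parental arrays, for each of the 29 genes (red, 14 higher genes; blue, 15 lower genes; black bars, medians of the genes of 1 direction). The medians of S8-2x (0.77 and -0.85) and S16-2x (0.70 and -0.82) lie nearest to 0, and S24-2x (1.07 and -1.22) lies with the 4x hybrids.

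Full sibs of the same ploidy level were compared gene by gene to ask whether the genes also varied among the hybrids. The rule did not use these differences directly, but it used every hybrid array and limited the distance of the 2x from the 4x mean. It therefore bears on how far sibs can differ. The counts, p-values and medians below are not independent of that choice. Genes were called with limma at an adjusted p under 0.05, over all 41527 genes, and a log2 difference over 1, with 3 arrays against 3. None of the 29 genes was called in S8-2x against S16-2x (2.51% of all genes), S8-2x against S24-2x (3.42%), S16-2x against S24-2x (0.864%), S29-4x against S48-4x (3.16%), S29-4x against S60-4x (1.54%) or S48-4x against S60-4x (3.24%). With these shares, a count of 0 among 29 genes is near the background and does not show that the genes were stable. At an unadjusted p under 0.05 and any size, the counts in the same order were 5 (20.9% of all genes), 12 (25.3%), 10 (22.6%), 5 (19.6%), 11 (19.6%) and 7 (19.5%) of the 29.

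Without the threshold on the size, 5 of the 29 genes passed in S8-2x against S24-2x (7.17% of all genes), 3 in S29-4x against S60-4x (3.43%) and 1 in S48-4x against S60-4x (6.01%). In the other comparisons 0 passed (4.14%, 1.03% and 4.88% of all genes in S8-2x against S16-2x, S16-2x against S24-2x and S29-4x against S48-4x). In S24-2x the P450 gene TC199769 was higher than in S8-2x (S8-2x minus S24-2x, -0.76, SE 0.153, adjusted p = 0.0333 from limma). The S-like ribonuclease TC182885 (0.94, SE 0.192, adjusted p = 0.0348 from limma) and TC186182 (0.69, SE 0.111, adjusted p = 0.0157 from limma), TC188112 (0.61, adjusted p = 0.0281 from limma) and TC178846 (0.52, adjusted p = 0.0455 from limma) were lower in S24-2x. In all 5 genes S24-2x was thus farther from the parents than S8-2x, and the arrays of these hybrids did not overlap. S29-4x was above S60-4x in TC184641 (0.93, SE 0.184, adjusted p = 0.0466 from limma) and TC194132 (0.66, SE 0.119, adjusted p = 0.0354 from limma), and below it in TC186182 (-0.89, SE 0.158, adjusted p = 0.0338 from limma). S48-4x was above S60-4x in TC194132 (0.63, SE 0.123, adjusted p = 0.0318 from limma). In these 4 differences S60-4x was the nearer to the parents.

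The alternative oxidase TC199572 was the widest of the 29 genes between S8-2x and S16-2x, with 7.70 ± 0.28 and 6.56 ± 0.47 (SD, n = 3 arrays each), a log2 difference of 1.14 (SE 0.258) at an adjusted p of 0.0578 from limma. It was called there when all 24 arrays shared 1 estimate of the spread, with the trend and robust options of limma, or when the genes of lowest mean were left out. The median absolute difference of the 29 genes between sibs was below that of all genes in S8-2x against S16-2x (0.14 and 0.22) and S29-4x against S48-4x (0.18 and 0.21). It was above it in S8-2x against S24-2x (0.28 and 0.24), S16-2x against S24-2x (0.32 and 0.24), S29-4x against S60-4x (0.26 and 0.17) and S48-4x against S60-4x (0.28 and 0.18).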

How the data were processed

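Gene transcription in leaves was measured with 24 NimbleGen arrays of 8 genotypes, with probes for sequences of the Medicago Gene Index (release 11.0). The authors deposited 1 linear intensity per gene and array, quantile normalized and summarized over probes with RMA in NimbleScan 2.5. The 11 negative controls were left out and the intensities transformed to log2. Samples were grouped by their labels, and 0 columns belonged to other samples. The number of arrays and of genotypes limits the precision. The rule was applied to all genes in Python 3.11.15 (numpy 2.4.6, pandas 2.3.3, matplotlib 3.10.9). Differences between sibs were fitted in R 4.3.3 by limma 3.58.1 (eBayes after lmFit, unpaired, arrays of the 2 genotypes only) with Benjamini-Hochberg adjustment. On simulated data the calls included 76.5% to 86.5% of 200 genes with a log2 change of 2. The differences between sibs of the chosen genes were at most 1.14, so these shares do not apply to them. The genes and lists were chosen with earlier results of these data known. Named genes were the 10 with the largest difference in each direction, those with a named function, the 3 on each side of the limit in each direction, and the called genes with the largest differences between sibs. Of the 29 genes, TC181083, TC188112 and NP7262889 fall outside this rule and were named after their values were seen. Other genes of the study's list with an annotation related to one of the 29 genes also fall outside it, as does TC191278. Functions were grouped by keywords in the study's annotation of 1019 genes (respiration and fermentation, starch and cell wall, hormones, lipid oxidation, P450 and other oxygenases, transcription factors, protein turnover, chloroplast and nitrogen, transport and signalling, other). No other fold changes or tests of the study were used. The M. sativa gene table given as a reference matched 0 of the array identifiers, so positions and sequences are not given. Alternatives were other limits, scalings, floors and filters, other limma settings, a replicate block, and leaving out each array or genotype. Slides and scan batches are not given in the sources used here.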

Additional observations from a re-analysis of the deposited data

Results flagged for a closer look

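In the parents, 2x hybrids and 4x hybrids of the 29 genes (87 groups of 6 or 9 arrays), 6 groups held 1 array far from the others by Dixon's criterion. Chance flags about 1 in 20 groups of arrays drawn alike. The groups here pool 2 or 3 genotypes, and their genes were chosen by the rule. That rate therefore need not hold for them. PG-F9 replicate 2 stood above the other parental arrays in TC197698 (11.52, next 10.97) and in TC188112 (8.99, next 8.68). In the 2x hybrids, S24-2x replicate 1 was highest in TC194132 (13.41, next 13.11), replicate 3 lowest in TC192791 (13.23, next 13.38) and replicate 2 lowest in the GTP-binding protein gene TC181344 (6.30, next 7.19). In the 4x hybrids, S48-4x replicate 2 was highest in NP7258136 (9.12, next 8.48). Of these 6 values, those in TC197698 and TC188112 lie on the parental side away from the hybrids, and the other 4 lie on the side of the hybrids away from the parents. The rule allows no overlap of hybrid and parental arrays, which largely fixes the side on which such an array can fall.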

How the results depend on the processing

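The limit on the difference set the number of genes in part, with 7 higher and 7 lower at a limit of 1. Leaving out 1 array gave 13 to 24 higher genes (24 without 12P replicate 2) and 15 to 34 lower genes (34 without PG-F9 replicate 1, 24 without 12P replicate 3 and 23 without PG-F9 replicate 2). Without a genotype the counts of higher and lower genes were 867 and 704 for PG-F9, 768 and 592 for 12P, 37 and 41 for S8-2x, and 28 and 48 for S16-2x, and 28 genes were lower without S48-4x. With 1 parent left, the rule compares the hybrids with that parent alone, and fewer arrays make the rule easier to meet. Under the remaining 11 of 12 settings tried in each direction, including another quantile normalization and centring of the arrays (28 of the 29 genes shared in both), the counts were within 1.5 times. Several of these settings returned the same 29 genes. Lifting the limit on the ploidy or the parental difference could not change them, since these limits removed 0 genes. None of 87 differences under other scalings or a floor moved by over 1 SD. The floor left the differences as they were, so its share of the 87 adds nothing. Arrays with the same replicate number were not more alike on average (mean residual correlation -0.007 in 84 pairs with the same number and 0.003 in 168 others). Single pairs ran from -0.32 to 0.34 and from -0.43 to 0.38. These means cannot decide whether some arrays shared a block. With a replicate block 15 higher and 16 lower genes met the rule, 22 of them among the 29, and 0 were called between sibs in each comparison. TC199572 was the 1 gene called between S8-2x and S16-2x with all 24 arrays in the fit, with trend and robust options, without the genes of lowest mean, and without S16-2x replicate 1 (0 to 1 with arrays left out), and between S48-4x and S60-4x with all 24 arrays (1) and without S48-4x replicate 2 (0 to 1). Without S48-4x replicate 2, TC186182 and TC199572 were called between S29-4x and S48-4x (0 to 2). Between S8-2x and S24-2x 1 gene was called without S24-2x replicate 1 (TC173821), 2 (TC192792) or 3 (TC182885) (0 to 1). Without the threshold on the size, 5, 3 and 1 genes passed in S8-2x against S24-2x, S29-4x against S60-4x and S48-4x against S60-4x. The cause of these changes was not tested.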

Other observations

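The study's list of annotated genes, which it chose on these samples, also holds functions with no or few members among the 29 genes. Of its 9 genes of respiration and fermentation, 8 were over 0.6 lower in the hybrids than in the parents and 1 was higher, with a median of -0.95. These include the 6 genes named alternative oxidase described above, 5 lower and 1 higher, among them TC199572, which the rule chose. Of its 36 genes of protein turnover and AAA ATPases, 20 were lower and 4 higher, with a median of -0.71. Of its 36 genes of transport and signalling, 18 were lower and 6 higher (median -0.59). Genes of starch and cell wall were more evenly divided, with 14 higher and 11 lower of 41 (median 0.08), and 0 of them were among the 29 genes. Of 11 hormone genes, 5 were higher and 3 lower (median 0.56), and of 19 genes of the chloroplast and nitrogen assimilation 2 were higher and 5 lower (median -0.06). Of 19 genes of lipid oxidation, 1 was higher and 5 were lower (median -0.24). Of the 736 genes with no named function, 251 were higher and 179 lower (median 0.12). Over the whole list of 1019 genes, 312 (30.6%) were over 0.6 higher and 288 (28.3%) lower, and the shares of lipid oxidation and chloroplast genes that were lower are near this.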
